A study of Mus musculus with 9 samples.

Results

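The genes described here are 39 mouse genes that NRF2 is known to regulate, that set its activity, or that carry out the same antioxidant and redox chemistry. They were given as a list of symbols and looked up in a table of 48795 genes, where each symbol matched exactly 1 gene. All 39 also passed the filter on low values, with 12741 genes tested in all. The table came from bulk RNA-seq of mouse colon organoids, which are epithelial cultures grown in Matrigel from colon crypts. The 9 libraries fell into 4 groups. Wild-type (WT) organoids received DMSO for 4 h (n = 2 libraries) or 5 nM FICZ for 4 h (n = 3), and organoids labelled AHR KO received DMSO for 4 h (n = 2) or 5 nM FICZ for 4 h (n = 2). FICZ is a tryptophan-derived ligand of the aryl hydrocarbon receptor (AHR), and DMSO was its vehicle. The study's methods describe the AHR KO as Villin-Cre Ahr fl/fl on a C57BL/6 background, so that Cre is driven in intestinal epithelium, with wild-type littermates as controls. All groups shared the WENR stem cell medium, which holds Wnt3a, EGF, Noggin and R-spondin1, and per the methods also the antioxidant N-acetylcysteine, nicotinamide, the p38 inhibitor SB202190 and the ALK5 inhibitor A83-01. The labels do not say whether the libraries of a group came from separate animals or cultures, so p-values measure the spread between these libraries. The methods describe organoids from the crypts of several mice as biological replicates and do not name the mouse behind each library.

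NRF2, the product of Nfe2l2, is a transcription factor that the adaptor KEAP1 holds in the cytoplasm and marks for degradation. Electrophiles and oxidants modify KEAP1, and NRF2 then enters the nucleus, pairs with a small MAF protein and binds antioxidant response elements, a site for which BACH1 competes. Its known targets make glutathione, reduce thioredoxin, supply NADPH, reduce quinones and store iron. AHR binds a different element, and Nqo1 is a textbook gene of both factors.

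Some facts of the whole series bear on every value below. Normalised read counts summed to between 23177058 and 25033827 per library. Ahr itself was at 783 to 858 normalised reads in the 5 WT libraries and at 1346 to 1443 in the 4 AHR KO libraries, higher in AHR KO under both treatments (log2 difference of 0.74 under DMSO and 0.84 under FICZ). The table counts the whole gene and does not separate the floxed exon, so this value does not check the deletion. Cyp1a1, the classical AHR target, was at 5.84 and 0 in WT DMSO, 7797, 6988 and 7958 in WT FICZ, 0 and 2.93 in AHR KO DMSO, and 100 and 139 in AHR KO FICZ. Its change with FICZ was larger in WT by 5.59 on the log2 scale, which did not pass over all genes (limma, adjusted p = 0.0677). Among other AHR targets, Tiparp rose by 1.84 in WT and had a change of 0.13 in AHR KO, a called difference (1.71, adjusted p = 0.000155), and Ahrr rose in both genotypes, from 0 and 0 to 16.9 and 17.3 normalised reads in AHR KO, with a called difference between the changes (adjusted p = 0.01). Cyp1b1 was at 1632 and 1078 in WT DMSO, 10220, 10600 and 8898 in WT FICZ, 34.5 and 25.4 in AHR KO DMSO, and 137 and 222 in AHR KO FICZ, with called differences of AHR KO from WT of -5.44 under DMSO and -5.82 under FICZ. It rose by 2.90 in WT and by 2.52 in AHR KO, and these changes were not called different (0.38, interval -0.35 to 1.11, adjusted p = 0.881). The 8 epithelial markers summed to between 297535 and 325332 in every library. Of the other cell types' markers, the 6 fibroblast genes summed to at most 4.64 and the 3 endothelial genes to at most 5.27. Among the 6 immune markers 3 were at 0 throughout, Ptprc among them, and the sum of 475 to 712 was almost all Cd68. In bulk libraries, fewer cells of a type and less RNA per cell cannot be told apart.

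The first question was how many of the 39 genes moved with the ligand in each genotype. With limma on log2(normalised count + 1) and adjustment over all genes tested, 14 members were called in WT at an adjusted p under 0.05, 13 higher and 1 lower under FICZ. That is 35.9% of the list, against 30.8% of all genes tested (15.1% higher and 15.7% lower). In AHR KO, 8 members were called, 5 higher and 3 lower, which is 20.5% of the list against 19.7% of all genes (10.2% higher and 9.48% lower). By direction, the WT calls were 33.3% of the list higher and 2.56% lower, and those in AHR KO 12.8% and 7.69%. Every group but WT FICZ had 2 libraries, so leaving 1 of them out left a group of 1, here and below. Leaving out 1 library gave as few as 8 members in WT (without WT DMSO replicate 2 or 3) and as few as 1 in AHR KO (without AHR KO DMSO replicate 1), where the share of all genes called fell to 15.6% or 17.8% and to 3.29%. The median log2 change of the members was 0.12 in WT and 0.02 in AHR KO beside medians of -0.01 and -0.01 over all genes. The FICZ changes ran from -0.22 to 1.61 in WT and from -0.30 to 0.55 in AHR KO.

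The change with FICZ differed between the genotypes, by the interaction term of the fit, for 3 members: Nqo1, Osgin1 and Nfe2l2. All 3 had the higher change in WT. This is 7.69% of the list, against 0.447% of all genes tested (0.377% higher in WT and 0.0706% lower). With 1 library left out, 2 to 3 members were called for the interaction, beside 0.18% to 0.612% of all genes. Keap1, Srxn1, Taldo1, Tkt and Ftl1 were called higher under FICZ in both genotypes, and Nfe2l2 was called in both with opposite signs. Calls in both with the same sign were 12.8% of the list against 15.2% of all genes. With FICZ, a call in WT without one in AHR KO was made for 8 members, Gclc, Txnrd1, Prdx6, Nqo1, Cbr3, Fth1, Osgin1 and Sesn2 (20.5% of the list against 15.6% of all genes). Of these, Nqo1 and Osgin1 passed the test of the difference. Gclm and Gsr were called in AHR KO and not in WT (5.13% against 4.47%), and 23 members in neither (59.0% against 64.7%).

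**Figure D1:**
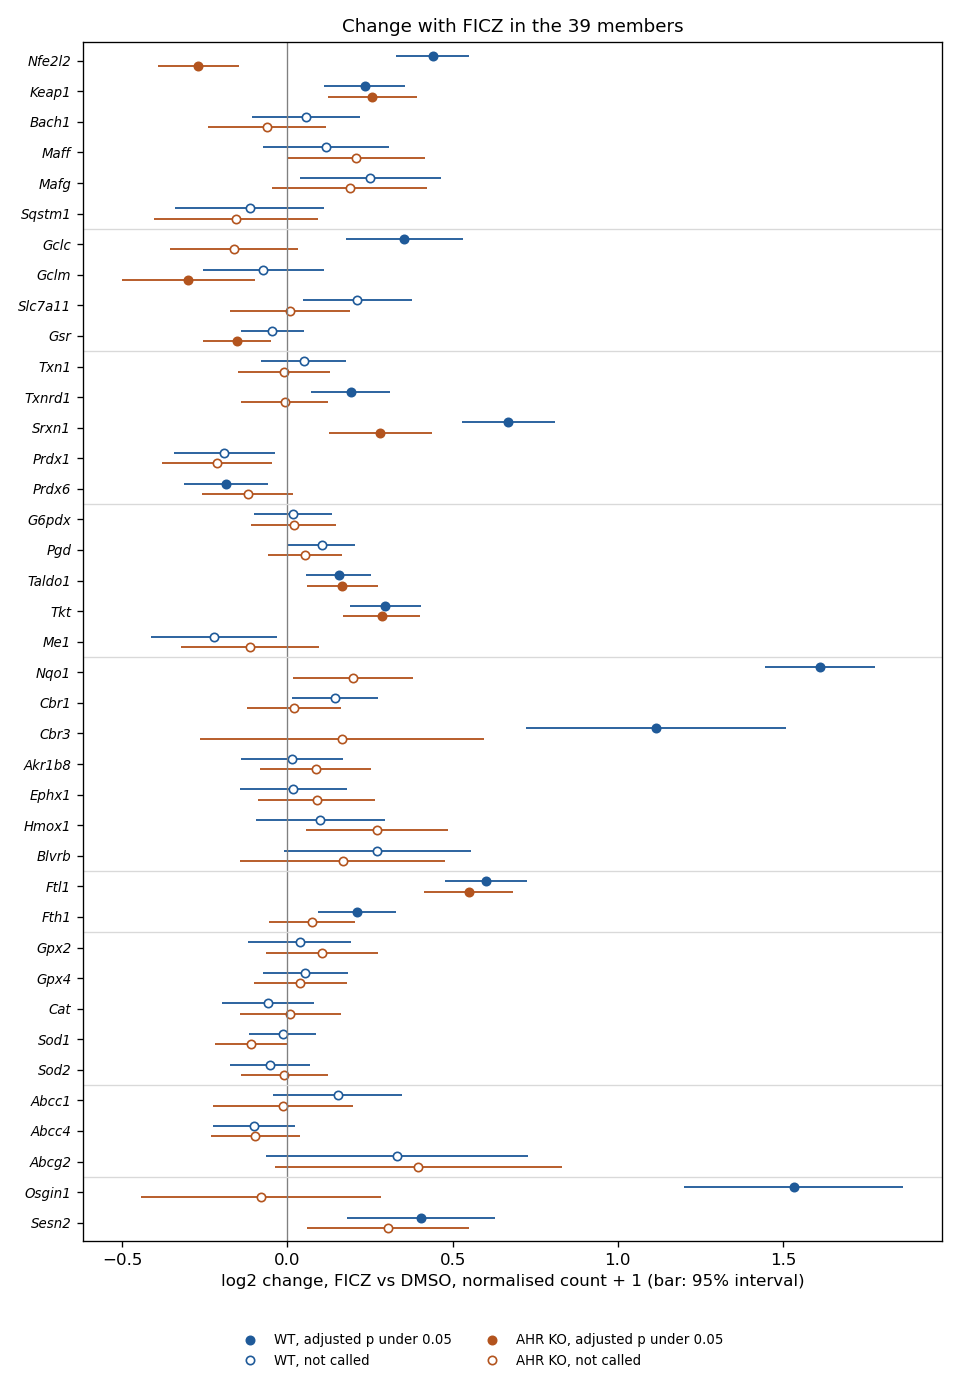
Log2 change with FICZ (x axis, normalised count + 1) of each of the 39 members (y axis, grouped by role) in WT (blue) and AHR KO (orange), with 95% limma intervals and filled points for an adjusted p under 0.05. Nqo1, Osgin1 and Cbr3 lie above 1 in WT and near 0 in AHR KO, whereas Ftl1 and Tkt lie at like values in both.

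The change with FICZ varied with GC content in both genotypes. Across 12700 genes in WT, the log2 change with FICZ rose with the GC content of the transcript (Spearman's rho of 0.49), and across 12703 genes in AHR KO rho was 0.57. These are descriptions over genes that share the same libraries. The corresponding rho was -0.045 for the interaction, -0.10 for AHR KO against WT under DMSO and -0.06 under FICZ. After a trend on GC content and transcript length was removed from each library, 15 members were called in WT (38.5% of the list, against 18.4% of all genes), 10 of the 14 first called (without Keap1, Prdx6, Taldo1 and Sesn2) and in addition Slc7a11, Txn1, Pgd, Cbr1 and Gpx4. In AHR KO 3 were called (7.69%, against 5.23% of all genes), 1 of the 8 first called, Ftl1, being among them. All 3 interaction calls were kept, beside 0.551% of all genes called. Whether the GC trend is technical or belongs to the genes that responded was not tested.

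The promoters of responding members are shown because a ligand of AHR was given and the list is defined by NRF2, whose binding motifs differ. RefSeq promoter windows of 300 bases (250 before and 50 after the start of transcription, GRCm38.p6) were found for 34 of the 39 members, 48 windows in all, with no entry for Abcc1, Gclc, Gsr, Hmox1 and Prdx6. Each window was searched on both strands for GCGTG, the core that AHR recognises, and for TGACNNNGC, the antioxidant response element. The letters of the first motif occurred in 27 of the 48 member windows (56.2%) and in 32.4% of all 32851 windows, and those of the second in 14 member windows (29.2%) and in 12.4% of all. A match is a description of sequence and not a site. The 32851 windows were not limited to genes that passed the filter, as all members did, and some genes, such as Gpx4, hold several windows. Whether the members differ from comparable genes was not tested. Nqo1 and Cbr3, which changed in WT by 1.61 and 1.12 on the log2 scale, had neither motif in this window, which says only that these letters are absent from it. Of the members called with FICZ in WT whose window holds a match, the 4 with the largest change are printed as the 250 bases before the start, 5′ to 3′ on the gene's strand, with matches in capitals.
Osgin1: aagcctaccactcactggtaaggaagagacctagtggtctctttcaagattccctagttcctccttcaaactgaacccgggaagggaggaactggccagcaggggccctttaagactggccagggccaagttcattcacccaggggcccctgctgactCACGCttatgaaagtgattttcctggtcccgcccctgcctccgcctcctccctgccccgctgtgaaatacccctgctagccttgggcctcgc
Srxn1: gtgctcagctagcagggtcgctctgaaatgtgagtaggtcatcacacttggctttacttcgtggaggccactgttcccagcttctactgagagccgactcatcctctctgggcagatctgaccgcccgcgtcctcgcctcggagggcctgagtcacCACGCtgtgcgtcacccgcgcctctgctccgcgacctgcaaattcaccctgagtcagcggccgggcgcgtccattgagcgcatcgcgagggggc
Ftl1: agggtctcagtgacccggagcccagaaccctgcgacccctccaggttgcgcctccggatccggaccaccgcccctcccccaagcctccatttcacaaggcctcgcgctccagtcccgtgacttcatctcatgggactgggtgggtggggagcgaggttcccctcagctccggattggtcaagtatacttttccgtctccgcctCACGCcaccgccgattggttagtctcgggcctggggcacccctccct
Nfe2l2: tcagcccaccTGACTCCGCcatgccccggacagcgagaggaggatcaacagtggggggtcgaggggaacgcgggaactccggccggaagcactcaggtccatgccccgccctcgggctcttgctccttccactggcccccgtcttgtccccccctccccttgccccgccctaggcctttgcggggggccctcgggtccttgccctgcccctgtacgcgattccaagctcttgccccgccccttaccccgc
The Osgin1 stretch lies at chr8:119436897-119437146 (plus strand), with the AHR core on the opposite strand beginning 92 bases before the start. It lies inside the annotated gene, which begins at 119434124, and that end of the gene was not searched. The Srxn1 stretch lies at chr2:152105274-152105523 (plus strand), with an AHR core 94 bases before the start. A second core and an antioxidant response element match fell in the bases after the start, which are not printed. For Ftl1, at chr7:45459887-45460136 (minus strand), the AHR core began 47 bases before the start. For Nfe2l2, at chr2:75704664-75704913 (minus strand), the capitals mark an antioxidant response element match 240 bases before the start, and GCGTG was not found.

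Among the regulators, the transcript of NRF2 itself moved in opposite directions in the 2 genotypes. Nfe2l2 (chromosome 2, 75675513 to 75704641, GRCm38) was at 9856 and 9099 normalised reads in WT DMSO, 13082, 12559 and 12876 in WT FICZ, 8159 and 7856 in AHR KO DMSO, and 6675 and 6600 in AHR KO FICZ. The 4 groups did not overlap, with WT FICZ highest and AHR KO FICZ lowest. It rose with FICZ in WT by 0.44 ± 0.05 (log2, SE, adjusted p = 0.000352) and fell by 0.27 ± 0.06 in AHR KO (adjusted p = 0.00946). The change was 0.71 ± 0.07 higher in WT than in AHR KO (adjusted p = 0.00206), and this call held under all 20 alternatives that could be fitted. The fall in AHR KO was lost without AHR KO DMSO replicate 1 (adjusted p = 0.0938) and after the GC and length trend was removed (0.122), with a range of 0.00652 to 0.178 over 21 alternatives. AHR KO was below WT by 0.24 under DMSO (adjusted p = 0.022) and by 0.95 under FICZ (adjusted p = 2e-06). The DMSO difference was not called without WT DMSO replicate 2 (adjusted p = 0.182) or without AHR KO DMSO replicate 1 (0.0797) or 3 (0.169), nor with quantile normalization (0.0576), in a range of 0.0156 to 0.182.

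Keap1, the repressor of NRF2, was at 1793 and 1757 normalised reads in WT DMSO, 2030, 2057 and 2176 in WT FICZ, 1634 and 1651 in AHR KO DMSO, and 1904 and 2024 in AHR KO FICZ. It rose by 0.23 ± 0.06 in WT (adjusted p = 0.01) and by 0.26 ± 0.06 in AHR KO (adjusted p = 0.0164), with no overlap between DMSO and FICZ in either genotype. With the GC and length trend removed the change was -0.02 in WT and -0.01 in AHR KO, so the direction of Keap1 depends on that choice. The WT call was also lost without WT DMSO replicate 2 (adjusted p = 0.052) or 3 (0.0702), in a range of 0.00782 to 1.0 over the alternatives. Without AHR KO DMSO replicate 1 or 3 or AHR KO FICZ replicate 3, the Keap1 call in AHR KO was lost too (adjusted p = 0.112, 0.066 and 0.0937, in a range of 0.012 to 0.933).

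The partners and competitors of NRF2 were not called in any comparison, as was the case for 53.6% of all genes. Bach1, which encodes a repressor that competes for the same element, was at 1901 and 2047 in WT DMSO, 1986, 2074 and 2101 in WT FICZ, 1857 and 1854 in AHR KO DMSO, and 1934 and 1632 in AHR KO FICZ. Its FICZ change had a 95% interval of -0.11 to 0.22 in WT and -0.24 to 0.12 in AHR KO. The small MAF genes Maff and Mafg encode dimer partners of NRF2. Maff was at 398 and 366 in WT DMSO, 418, 392 and 433 in WT FICZ, 397 and 379 in AHR KO DMSO, and 457 and 439 in AHR KO FICZ, with changes of 0.12 and 0.21 that were not called. Mafg was at 1033 and 1026 in WT DMSO, 1348, 1102 and 1239 in WT FICZ, 1062 and 1179 in AHR KO DMSO, and 1181 and 1376 in AHR KO FICZ. The WT change of Mafg was 0.25 (interval 0.04 to 0.47, adjusted p = 0.0715), and it passed the threshold without WT FICZ replicate 2 (adjusted p = 0.0205, in a range of 0.0205 to 0.454). Mafg shares part of an exon with Sirt7 on the same strand, so reads there could have been split between them. Bach1 showed one more dependence on a library: its difference between AHR KO and WT under FICZ was -0.21 with an adjusted p of 0.0732. This difference passed without AHR KO FICZ replicate 1, a fit that left AHR KO FICZ with 1 library, at 1632. Sqstm1, which encodes the p62 protein that binds KEAP1, had changes of -0.11 in WT and -0.16 in AHR KO, neither called.

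Of the 4 genes of glutathione supply, Gclc was called higher under FICZ in WT and Gclm and Gsr lower in AHR KO. These 3 were called lower in AHR KO than in WT under FICZ, and only the call of Gclm held under every alternative. Over all genes, 30.8% were called for FICZ in WT and 19.7% in AHR KO. Between genotypes under FICZ, 20.0% of all genes were called, 10.5% lower in AHR KO. Gclc and Gclm encode the catalytic and modifier subunits of glutamate-cysteine ligase, the first step of glutathione synthesis. Gclc was at 2605 and 2774 normalised reads in WT DMSO, 3782, 3191 and 3366 in WT FICZ, 3206 and 3218 in AHR KO DMSO, and 2681 and 3070 in AHR KO FICZ. It rose in WT by 0.35 ± 0.08 (adjusted p = 0.00837), a call lost without WT DMSO replicate 2 (adjusted p = 0.076, in a range of 0.00452 to 0.076). Its change in AHR KO was -0.16 (interval -0.36 to 0.03, adjusted p = 0.217). The 2 changes differed by 0.52 ± 0.12, which did not pass over all genes (adjusted p = 0.146). Under FICZ, Gclc was lower in AHR KO by 0.26 (adjusted p = 0.0442), but 11 of 20 alternatives gave an adjusted p above the threshold. Leaving out any library other than WT FICZ replicate 2 or AHR KO FICZ replicate 3 did so, with Gclc at an adjusted p of 0.278 without AHR KO FICZ replicate 1, in a range of 0.0178 to 0.278.

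Gclm was at 4533 and 4801 in WT DMSO, 4989, 3982 and 4388 in WT FICZ, 3724 and 3824 in AHR KO DMSO, and 2970 and 3165 in AHR KO FICZ. The WT groups overlapped, and the WT change was -0.07 (interval -0.26 to 0.11). In AHR KO it fell by 0.30 ± 0.09 (adjusted p = 0.0433), a call that 11 of 21 alternatives did not keep, among them leaving out any 1 of the 4 AHR KO libraries (adjusted p from 0.0883 to 0.165) or either WT DMSO library or WT FICZ replicate 3 (0.0592 to 0.0606), in a range of 0.0119 to 0.592. The 2 changes were not called different (0.23, adjusted p = 0.752). Under FICZ it was lower in AHR KO by 0.53 ± 0.08 (adjusted p = 0.00142), with all 3 WT libraries above both AHR KO libraries, and this held under all 20 alternatives. The difference of -0.31 under DMSO was not called (adjusted p = 0.0654), and it passed without WT FICZ replicate 1 (0.0216) or 2 (0.0203) and in a fit of only the DMSO groups (0.00887), in a range of 0.00887 to 0.26. An antisense gene, Gm17494, overlaps exons of Gclm. The kit marks strand, and the strand setting of the counting is not given in the sources used here.

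Slc7a11, the cystine importer that feeds glutathione synthesis, was at 1404 and 1568 in WT DMSO, 1611, 1824 and 1727 in WT FICZ, 1786 and 1629 in AHR KO DMSO, and 1689 and 1740 in AHR KO FICZ. Its WT change of 0.21 (interval 0.05 to 0.38) had an adjusted p of 0.0536 and passed the threshold in 6 of 21 alternatives (0.00855 to 0.347), one of them without WT FICZ replicate 1 (0.0371). Gsr, which regenerates reduced glutathione, fell in AHR KO by 0.15 (adjusted p = 0.0447). That Gsr call was lost in 15 of 21 alternatives, with any library other than WT FICZ replicate 2 left out (0.0548 to 0.181, in a range of 0.0283 to 0.23). Gsr was also lower in AHR KO than in WT under FICZ by 0.18 (adjusted p = 0.0144), and leaving out WT FICZ replicate 3 or AHR KO FICZ replicate 1 or 3 gave 0.0547, 0.061 and 0.0645, in a range of 0.00971 to 0.0645.

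In the thioredoxin and peroxiredoxin group, the most marked change was that of Srxn1, which encodes sulfiredoxin, the enzyme that repairs over-oxidised peroxiredoxins. Srxn1 was at 2034 and 1869 in WT DMSO, 3167, 3142 and 2990 in WT FICZ, 1658 and 1849 in AHR KO DMSO, and 2110 and 2147 in AHR KO FICZ. The rise in WT was 0.67 ± 0.06, a fold of 1.59 (adjusted p = 0.000182), and this held under all 21 alternatives. In AHR KO it rose by 0.28 ± 0.07 (adjusted p = 0.0207). This AHR KO call was lost without AHR KO DMSO replicate 1, AHR KO FICZ replicate 1 or AHR KO FICZ replicate 3. It was also lost with the GC and length trend removed (0.141), in a range of 0.0154 to 0.173. The difference between these changes was 0.39 ± 0.09 and was not called (adjusted p = 0.191). Under FICZ, AHR KO was below WT by 0.54 (adjusted p = 0.000234), with no overlap.

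Txnrd1, thioredoxin reductase, was at 11204 and 11155 in WT DMSO, 12882, 13170 and 12249 in WT FICZ, 11009 and 11188 in AHR KO DMSO, and 10539 and 11541 in AHR KO FICZ. Its rise in WT was 0.19 ± 0.05 (adjusted p = 0.0233). Without WT DMSO replicate 2, WT DMSO replicate 3 or WT FICZ replicate 1 the Txnrd1 call was lost (adjusted p = 0.109, 0.113 and 0.0559, in a range of 0.00744 to 0.113). The AHR KO change was -0.01 (interval -0.14 to 0.12). Under FICZ it was lower in AHR KO by 0.21 (adjusted p = 0.0207), a call lost without WT FICZ replicate 1 (0.0543) or AHR KO FICZ replicate 1 (0.147, in a range of 0.0182 to 0.147).

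Txn1, thioredoxin itself, was not called in any of the 5 comparisons, with a WT interval of -0.08 to 0.18. With the GC and length trend removed it was called higher under FICZ in WT (adjusted p = 0.0283, in a range of 0.0283 to 0.981). Its WT change was 0.05 in the main fit and ran from 0.002 to 0.204 over the alternatives. Of the peroxiredoxins, which reduce peroxides with electrons from thioredoxin or glutathione, Prdx6 fell in WT by 0.19 (adjusted p = 0.0315), but 13 of 21 alternatives lost the call. Leaving out either WT DMSO library, either AHR KO DMSO library, WT FICZ replicate 1 or WT FICZ replicate 3 did so, with adjusted p for Prdx6 from 0.0504 to 0.168, in a range of 0.00929 to 0.168. Prdx1 had changes of -0.19 in WT (adjusted p = 0.0584) and -0.21 in AHR KO (0.0717). For Prdx1 the library WT FICZ replicate 2 stood at 17135 beside 14602 and 14644 in the other WT FICZ libraries, and without it the WT change was -0.27 (adjusted p = 0.00164, in a range of 0.00164 to 0.998) and the AHR KO change had an adjusted p of 0.00698 (in a range of 0.00698 to 0.935). Without it, Prdx1 was also called higher in AHR KO under FICZ (adjusted p = 0.00856, in a range of 0.00856 to 0.546).

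Of the genes grouped under NADPH supply, Tkt and Taldo1 rose in each genotype, and G6pdx, Pgd and Me1 were not called for FICZ. Tkt and Taldo1 are 40.0% of the group, against 30.8% of all genes called in WT and 19.7% in AHR KO. They encode transketolase and transaldolase, the non-oxidative steps of the pentose phosphate pathway, which do not themselves make NADPH. Tkt was at 20120 to 20128 in WT DMSO, 24158 to 25425 in WT FICZ, 21031 to 21813 in AHR KO DMSO and 25810 to 26368 in AHR KO FICZ. It rose by 0.30 ± 0.05 in WT (adjusted p = 0.00166), under all 21 alternatives, and by 0.28 ± 0.05 in AHR KO (adjusted p = 0.00643). The AHR KO call of Tkt was lost without AHR KO DMSO replicate 1 and with the GC and length trend removed (0.0875), in a range of 0.00264 to 0.158. Taldo1 rose by 0.16 in WT (adjusted p = 0.0246) and by 0.17 in AHR KO (0.0389). The WT call of Taldo1 was lost without WT DMSO replicate 2, WT DMSO replicate 3 or WT FICZ replicate 1 (0.0504 for the last). It was also lost with the GC and length trend removed (0.188), in a range of 0.0117 to 0.252. Its AHR KO call was lost in 13 of 21 alternatives (0.0153 to 0.332), leaving out any library other than WT FICZ replicate 1 or 2 among them.

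G6pdx, glucose-6-phosphate dehydrogenase and the first step of the pathway, had changes of 0.02 in both genotypes, with intervals of -0.10 to 0.13 in WT and -0.11 to 0.15 in AHR KO. Ikbkg overlaps exons of G6pdx on the opposite strand. Pgd, the next dehydrogenase, had changes of 0.10 and 0.05, neither called, and was lower in AHR KO than in WT under FICZ by 0.21 (adjusted p = 0.00809), under all 20 alternatives. Under DMSO the Pgd difference was -0.16 (adjusted p = 0.0711), called without WT FICZ replicate 2 (0.0439, in a range of 0.0427 to 0.333). Me1, malic enzyme, had the lowest WT change of the list at -0.22 (interval -0.41 to -0.03, adjusted p = 0.0738). That change was called without WT FICZ replicate 2 (0.0271) or without AHR KO FICZ replicate 1 (0.041) or 3 (0.0408), in a range of 0.0271 to 0.5. Me1 was higher in AHR KO than in WT under FICZ by 0.37 (adjusted p = 0.0123), a call lost without AHR KO FICZ replicate 1 (0.103, in a range of 0.00417 to 0.103).

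The largest change of the list was that of Nqo1, NAD(P)H quinone dehydrogenase, which reduces quinones to hydroquinones (chromosome 8, 107388225 to 107403206). It was at 581 and 595 normalised reads in WT DMSO, 1864, 1809 and 1725 in WT FICZ, 267 and 242 in AHR KO DMSO, and 288 and 295 in AHR KO FICZ. Every AHR KO library, with or without ligand, lay below both WT DMSO libraries, and all 3 WT FICZ libraries lay above every other. It rose in WT by 1.61 ± 0.07, a fold of 3.05 (adjusted p = 1.88e-06), while the AHR KO change was 0.20 (interval 0.02 to 0.38, adjusted p = 0.115). The difference between the changes was 1.41 ± 0.11 (adjusted p = 0.000257). Nqo1 was lower in AHR KO by 1.21 under DMSO, a fold of 2.31 (adjusted p = 5.17e-05), and by 2.62 under FICZ, a fold of 6.15 (adjusted p = 8.9e-08). These 4 calls held under every alternative run, and the uncalled AHR KO change reached 0.0495 with the GC and length trend removed (range 0.0495 to 0.422).

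The carbonyl reductases differed in size of change. Cbr3 was at 108 and 118 in WT DMSO, 280, 205 and 260 in WT FICZ, 98.9 and 113 in AHR KO DMSO, and 103 and 137 in AHR KO FICZ. In WT it rose by 1.12 ± 0.18, a fold of 2.17 (adjusted p = 0.00152), under all 21 alternatives, and its change in AHR KO was 0.17 (interval -0.27 to 0.60). The difference of 0.95 ± 0.26 was not called (adjusted p = 0.274), so Cbr3 was not shown to respond differently in the genotypes. Under FICZ it was lower in AHR KO by 1.04 (adjusted p = 0.00238). Its paralogue Cbr1 had a WT change of 0.14 (adjusted p = 0.0879) and was lower in AHR KO under FICZ by 0.29 (adjusted p = 0.00589), a call lost without AHR KO FICZ replicate 3 (0.0608, in a range of 0.00518 to 0.0608). Akr1b8, an aldo-keto reductase, was not called in any comparison.

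Ephx1, microsomal epoxide hydrolase, followed genotype and not ligand. It was at 2597 and 2220 in WT DMSO, 2470, 2549 and 2282 in WT FICZ, 4271 and 4353 in AHR KO DMSO, and 4484 and 4689 in AHR KO FICZ. It was higher in AHR KO by 0.84 ± 0.08 under DMSO, where adjusted p was 0.000231. Under the ligand it was higher by 0.92 ± 0.07 (adjusted p = 2.23e-05), and both held under all 20 alternatives. Its FICZ changes were 0.02 (interval -0.14 to 0.18) in WT and 0.09 (-0.09 to 0.27) in AHR KO.

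The heme-handling genes did not rise with FICZ by the test, and 64.7% of all genes were called in neither genotype. Hmox1, heme oxygenase 1, a widely used NRF2 and stress readout, was at 489 and 471 in WT DMSO, 463, 544 and 541 in WT FICZ, 548 and 548 in AHR KO DMSO, and 640 and 683 in AHR KO FICZ. The WT groups overlapped, with a change of 0.10 (interval -0.10 to 0.30), and the AHR KO change was 0.27 (adjusted p = 0.0755), called without WT FICZ replicate 1 (0.0459, in a range of 0.0459 to 0.271). Under FICZ, Hmox1 was higher in AHR KO by 0.36 (adjusted p = 0.0165), lost without AHR KO FICZ replicate 3 (0.122, in a range of 0.0125 to 0.122). Blvrb, biliverdin reductase B, was lower there by 0.46 (adjusted p = 0.0306). The Blvrb call was lost without WT FICZ replicate 3 (0.102), AHR KO FICZ replicate 1 (0.0553) or AHR KO FICZ replicate 3 (0.188), in a range of 0.0262 to 0.188.

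The ferritin genes, which encode the light and heavy chains of the iron store, rose in WT, where 15.1% of all genes were called higher. Ftl1 was at 18359 and 18043 in WT DMSO, 28354, 27364 and 27135 in WT FICZ, 17389 and 18237 in AHR KO DMSO, and 24815 and 27336 in AHR KO FICZ. It rose by 0.60 ± 0.06, a fold of 1.52, in WT (adjusted p = 0.000163) and by 0.55 ± 0.06, a fold of 1.46, in AHR KO (adjusted p = 0.00143), under all 21 alternatives in each genotype. The difference between these changes was 0.05 with an interval of -0.13 to 0.24. With the GC and length trend removed the Ftl1 change stayed positive, and over all alternatives it ran from 0.41 to 0.66 in WT and from 0.34 to 0.63 in AHR KO. Gm10252 overlaps exons of Ftl1 on the opposite strand, and 2 pseudogenes named after it summed to a mean of 5.64 reads. Fth1 rose in WT by 0.21 ± 0.05 (adjusted p = 0.0147), and without WT DMSO replicate 2, WT DMSO replicate 3 or WT FICZ replicate 3 the Fth1 adjusted p was 0.119, 0.0511 and 0.0554, in a range of 0.00255 to 0.119. Its AHR KO change of 0.07 was not called.

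The 5 genes that remove peroxide and superoxide were not called for FICZ in either genotype, nor were 64.7% of all genes. As a group they were not tested against all genes. Gpx2, the glutathione peroxidase of gut epithelium, was at 63204 and 61997 in WT DMSO, 70203, 60018 and 62873 in WT FICZ, 59478 and 58771 in AHR KO DMSO, and 63986 and 63116 in AHR KO FICZ. The WT groups overlapped, and its changes were 0.04 (interval -0.12 to 0.19) and 0.10 (-0.07 to 0.27). The changes of Gpx4, Cat, Sod1 and Sod2 lay between -0.06 and 0.05 in WT and between -0.11 and 0.04 in AHR KO. With the GC and length trend removed, Gpx4 was called lower under FICZ in both genotypes, at -0.24 in WT (adjusted p = 0.00633, in a range of 0.00633 to 0.915) and -0.26 in AHR KO (0.02, in a range of 0.02 to 0.995), against 0.05 and 0.04 without that step. Sod1, cytosolic superoxide dismutase, was higher in AHR KO under DMSO by 0.22 (adjusted p = 0.0209), a call lost when any 1 of the 4 DMSO libraries was left out (0.072 to 0.152, in a range of 0.0119 to 0.152).

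The export pumps were not called for FICZ in either genotype, nor were 64.7% of all genes. Abcc4, which exports organic anions, was higher in AHR KO by 0.37 under DMSO (adjusted p = 0.00457) and by 0.37 under FICZ (adjusted p = 0.00108), under all 20 alternatives each. Abcg2, the breast cancer resistance protein and a known AHR target as well, was at 93.6 and 105 in WT DMSO, 149, 127 and 104 in WT FICZ, 61.2 and 65.6 in AHR KO DMSO, and 81.4 and 86.1 in AHR KO FICZ. All 4 AHR KO libraries lay below all 5 WT libraries. AHR KO differed from WT by -0.64 with DMSO, which was not called (adjusted p = 0.072), and by -0.58 with the ligand (adjusted p = 0.0463), a call that 12 of 19 alternatives did not keep (0.0272 to 0.168), all but WT FICZ replicate 3 being among the libraries whose omission ended it. Its FICZ changes were 0.33 (interval -0.07 to 0.73) in WT and 0.40 (-0.04 to 0.83) in AHR KO. Abcc1 was not called in any comparison.

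Osgin1 and Sesn2 are stress-induced genes that restrain growth. Osgin1 (chromosome 8, 119434124 to 119446256), whose product is an inhibitor of proliferation, was at 157 and 210 in WT DMSO, 516, 542 and 525 in WT FICZ, 232 and 182 in AHR KO DMSO, and 179 and 210 in AHR KO FICZ. The 3 WT FICZ libraries stood far above the other 6, which overlapped each other. It rose in WT by 1.53 ± 0.15, a fold of 2.89 (adjusted p = 0.000201), under all 21 alternatives, and its AHR KO change was -0.08 (interval -0.44 to 0.28). The change was 1.61 ± 0.22 higher in WT (adjusted p = 0.0119), and without AHR KO DMSO replicate 1 this difference was 1.44 and not called (adjusted p = 0.067, in a range of 0.00946 to 0.067). Under DMSO the AHR KO libraries did not differ by the test (0.17, interval -0.19 to 0.54), unlike Nqo1, and under FICZ they were lower by 1.44 (adjusted p = 0.000105). Sesn2, which links amino acid and oxidative stress to mTORC1, rose in WT by 0.40 ± 0.10 (adjusted p = 0.0136). Without WT DMSO replicate 3 that was 0.0942 and with the GC and length trend removed 0.475 (range 0.00359 to 0.475). Over the alternatives the WT change of Sesn2 itself ran from 0.12 to 0.51. Its AHR KO change was 0.30 (adjusted p = 0.0786), called without WT FICZ replicate 3 (0.0334) and in a fit of only the AHR KO groups (0.0476), in a range of 0.0334 to 0.987.

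**Figure D2:**
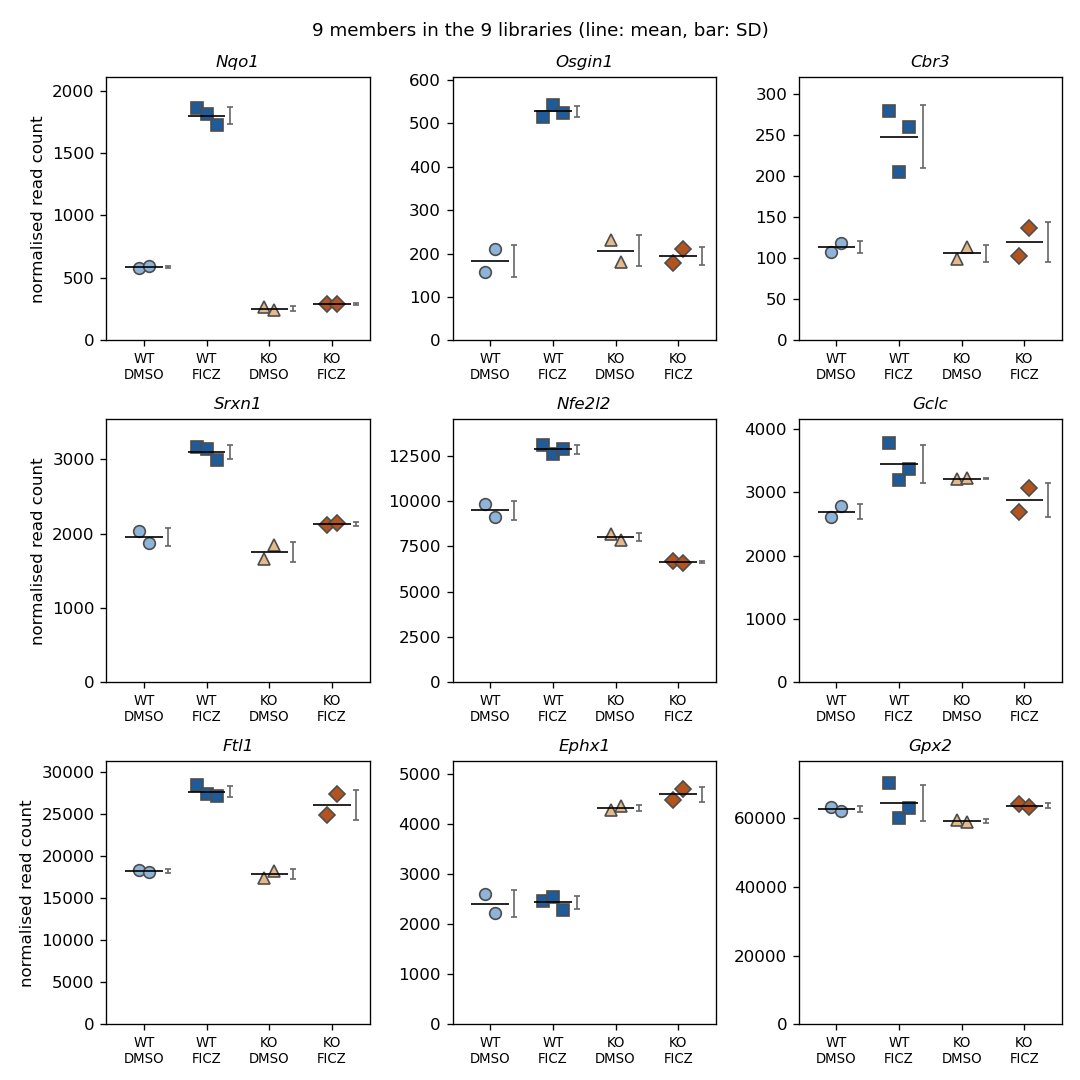
Normalised read counts (y axis, from 0) of 9 members in each library by group (x axis), with a line at the group mean and a bar of 1 SD beside it. WT FICZ stands apart from the other groups for Nqo1, Osgin1, Cbr3 and Srxn1, Ftl1 rises in both genotypes, Ephx1 splits by genotype, and the WT groups of Gpx2 overlap.

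Compared between genotypes, 5 members were called under DMSO, 3 higher in AHR KO (Abcc4, Ephx1 and Sod1) and 2 lower (Nfe2l2 and Nqo1). This is 12.8% of the list against 9.05% of all genes tested (4.21% higher and 4.83% lower). Under FICZ, 17 members were called, 4 higher (Abcc4, Ephx1, Hmox1 and Me1) and 13 lower, which is 43.6% of the list against 20.0% of all genes (9.48% higher and 10.5% lower). The 13 lower members were Abcg2, Blvrb, Cbr1, Cbr3, Gclc, Gclm, Gsr, Nfe2l2, Nqo1, Osgin1, Pgd, Srxn1 and Txnrd1, and 9 of the 17 calls held under every alternative. Nfe2l2, Nqo1, Ephx1 and Abcc4 were called under both treatments (10.3% of the list against 7.59% of all genes). The median difference of the members was -0.01 under DMSO and -0.03 under FICZ, beside -0.01 and -0.004 over all genes. These comparisons share libraries with the FICZ comparisons and are not independent of them. Of the 8 epithelial markers, Cdx1, Epcam and Krt20 were called lower in AHR KO under both treatments and Krt18 higher under FICZ, and their part in the differences of the members was not tested.

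**Figure D3:**
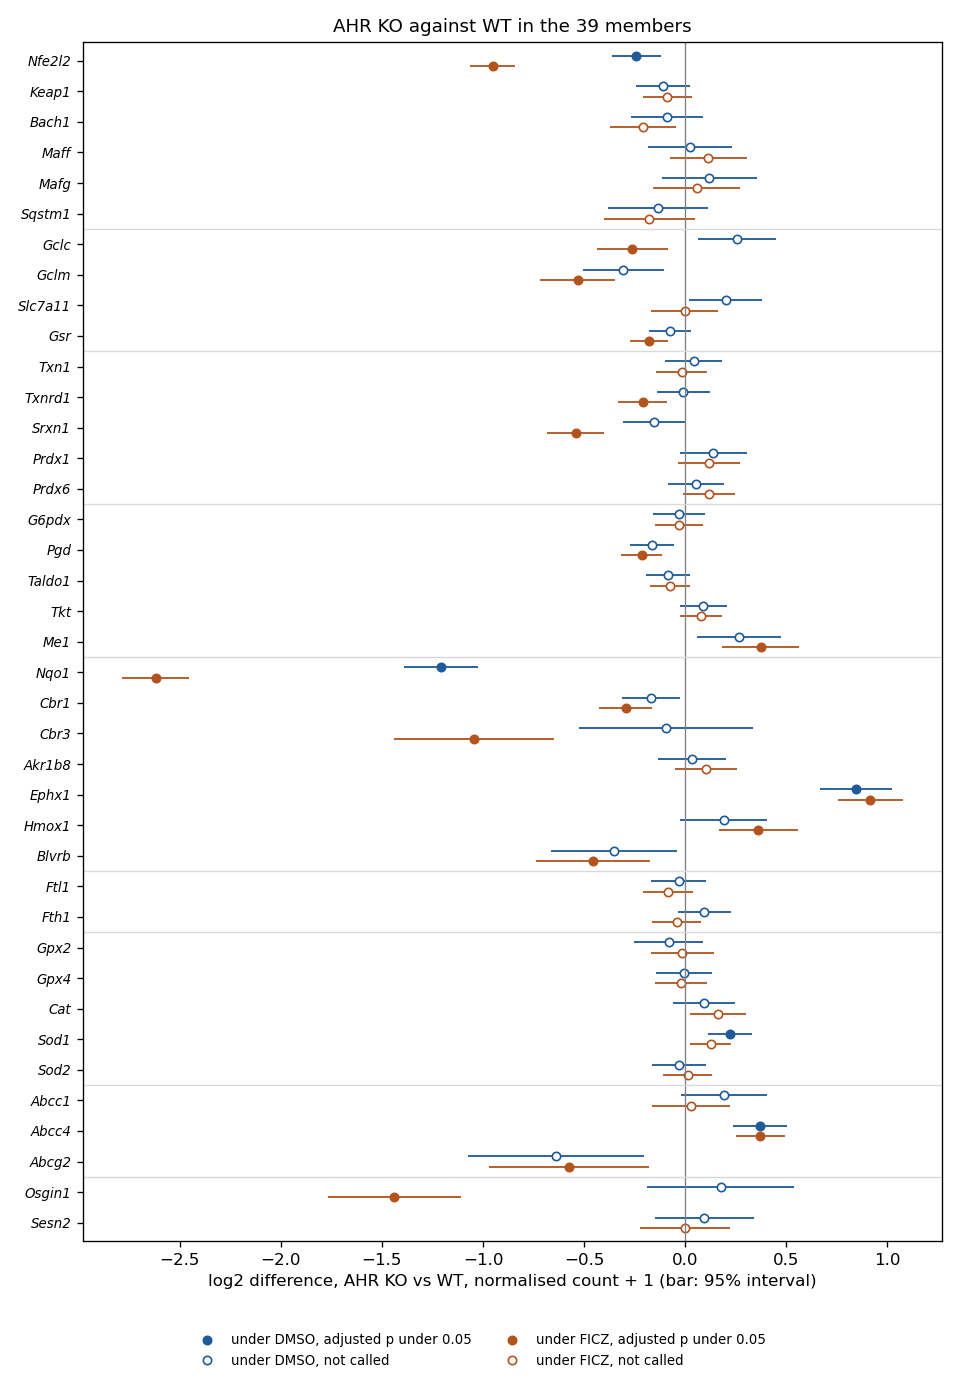
Log2 difference of AHR KO from WT (x axis, normalised count + 1) for each of the 39 members (y axis, grouped by role) under DMSO (blue) and under FICZ (orange), with 95% limma intervals and filled points for an adjusted p under 0.05. Nqo1 lies at -1.21 and -2.62 and Ephx1 at 0.84 and 0.92, while Osgin1 and Cbr3 lie near 0 under DMSO and below -1 under FICZ.

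The members spanned a wide range of levels, here given per kilobase of each gene's longest annotated transcript. That transcript need not be the one expressed, so the order of genes depends on this choice. In WT DMSO, Gpx2 was first at 19970 and 19588 normalised reads per kb and Ftl1 second at 18966 and 18639, with no overlap. Txn1 followed at 11473 and 11601, Prdx1 at 7619 and 7723, Tkt at 6245 and 6242, and Fth1 at 5740 and 5974. Under FICZ, Ftl1 stood above Gpx2 per kb in both genotypes, with a mean of 26938 against 20079 in AHR KO. The lengths used were 968 bases for Ftl1 and 3165 for Gpx2. Before division the AHR KO FICZ means were 26076 for Ftl1 and 63551 for Gpx2, so this order rests on those lengths. Nfe2l2 was 9th of 39 at 3982 and 3676 per kb, the highest of the regulators, while Keap1 was 26th at 496 and 486. Bach1, Mafg and Maff ran from 187 to 349 per kb. The members with the largest WT changes were among the low ones: Nqo1 was 29th at 374 and 383, Cbr3 37th at 92.3 and 101, and Osgin1 38th at 68.4 and 91.0. Abcg2 was last at 16.4 and 18.4. Me1, Prdx6 and G6pdx are neighbours in this order, and the libraries of Me1 and Prdx6 overlapped.

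**Figure D4:**
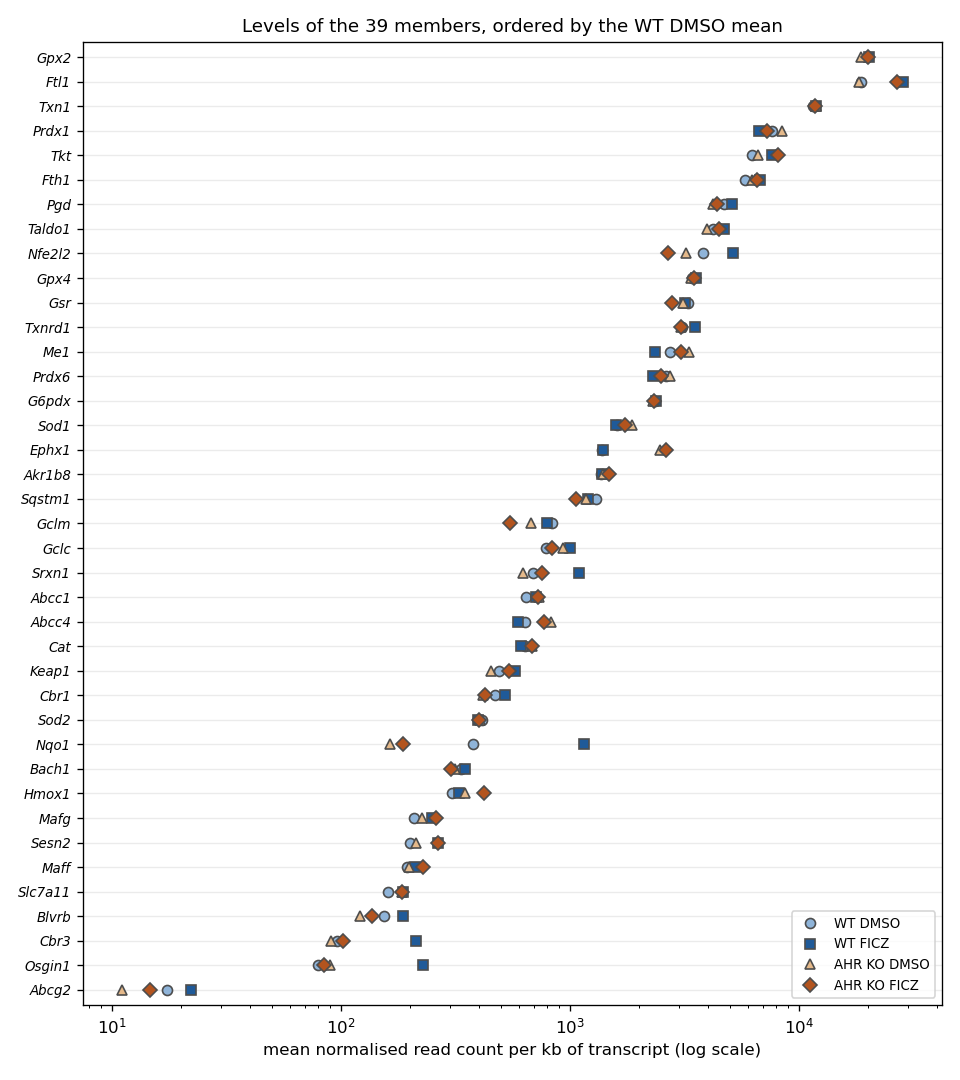
Mean normalised read count per kb of transcript (x axis, log scale) of the 39 members (y axis, ordered by the WT DMSO mean) in the 4 groups (marker shape and colour). The order is led by Gpx2 and Ftl1, and Nqo1, Cbr3 and Osgin1 in WT FICZ stand to the right of their other groups.

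A wider list of 45 redox genes outside the members, such as glutathione transferases, other peroxiredoxins, glutaredoxins and MRP pumps, was counted for comparison, and 41 were tested. In WT, 12 were called higher and 5 lower under FICZ (41.5% of the list, against 30.8% of all genes), and in AHR KO 7 higher and 2 lower (22.0%, against 19.7%). The median changes were 0.04 in WT and 0.035 in AHR KO, beside -0.01 in each over all genes. The interaction was called for 2 genes (4.88%, against 0.447% of all genes): Aldh3a1, an aldehyde dehydrogenase known to respond to AHR ligands, and Gsta4. AHR KO against WT gave 4 higher and 4 lower under DMSO (19.5%, against 9.05%), and 6 higher and 6 lower under FICZ (29.3%, against 20.0%).

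Aldh3a1 had the largest called change of this wider list. It was at 25.1 and 14.0 in WT DMSO, 221, 142 and 151 in WT FICZ, 58.0 and 67.7 in AHR KO DMSO, and 51.6 and 98.2 in AHR KO FICZ. It rose in WT by 3.09 ± 0.33 (adjusted p = 0.000268) and had a change of 0.18 (interval -0.61 to 0.98) in AHR KO, a difference of 2.91 (adjusted p = 0.0356). Under DMSO Aldh3a1 was higher in AHR KO by 1.68 (adjusted p = 0.017), whereas Nqo1 was lower there. Under FICZ the sign was the opposite, with AHR KO differing from WT by -1.23 for Aldh3a1 (limma, adjusted p = 0.0248). Mgst1, a microsomal glutathione transferase, was higher in AHR KO by 1.11 under DMSO and by 1.105 under FICZ, whereas Mgst3 was lower by 0.53 and 0.63 and Gstp1 lower by 0.33 and 0.57. Abcc5 was higher in AHR KO by 0.66 under DMSO and by 0.95 under FICZ, and Ugdh, which makes UDP-glucuronate, was lower by 0.51 and 0.305, all called.

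The 12 genes of the amino acid stress response, a pathway that shares Slc7a11 and Sesn2 as known targets with NRF2, were counted beside them. In each genotype 2 were called, both higher under FICZ, Ddit4 and Shmt2, which is 16.7% against the backgrounds of 30.8% and 19.7% given above. None of the 12 was called for the interaction by limma, with 0 at an unadjusted p under 0.05 (7.47% of all genes). AHR KO against WT gave 0 calls under DMSO (4 at an unadjusted p under 0.05, 33.3% of the list against 23.8% of all genes) and 1 under FICZ (8.33%), Slc7a5, higher by 0.39 (adjusted p = 0.0343), beside 9.05% and 20.0% of all genes called.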

How the data were processed

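RNA from 9 organoid libraries was sequenced after TruSeq stranded preparation with RiboZero Gold. The deposited table is a signal on a linear scale, normalised read counts per gene: per the submitters' processing notes the authors used STAR 2.5.2a, RSEM 1.2.31 and DESeq2 1.16.1 on GRCm38. The study's methods name a different counter (summarizeOverlaps on mm10 knownGene), which could not be reconciled here. Values are not whole reads and cannot be turned back into them, so no count model, counting interval or floor was used. No column of the table was left unused.

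Of 48795 genes, 48435 (99.3%) matched GENCODE M21 by ID. Genes with a mean of 10 or more (12741) were tested with limma 3.58.1 (R 4.3.3, empirical Bayes with a trend) on log2(value + 1) over all 4 groups. Fold changes are on that scale. Benjamini-Hochberg adjustment was over all genes, separately in each of the 5 contrasts, and not across contrasts. Errors of log2 changes are standard errors and intervals are 95%. The script was tested on simulated data. Members, lists and tests were chosen with earlier results of these data known. Values in every library are given for 14 preset genes and for other members with a called log2 change of at least 0.5 or a called interaction. Promoter windows came from RefSeq (GRCm38.p6). The alternatives were pseudocounts of 0.1 and 10, no filter, a mean of 100 or more, TMM and quantile scaling, only the groups compared, robust limma, blocks by replicate number or by genotype and number, removal of a GC and length trend, and each library left out. Without a library of WT DMSO, AHR KO DMSO or AHR KO FICZ, that group held 1 library and gave no spread of its own.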

Additional observations from a re-analysis of the deposited data

Results flagged for a closer look

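3 members were singled out because their change with FICZ differed between WT and AHR KO by the interaction term of the limma fit over all 12741 genes. The difference was 1.61 for Osgin1 (adjusted p = 0.0119), 1.41 for Nqo1 (adjusted p = 0.000257) and 0.71 for Nfe2l2 (adjusted p = 0.00206), each the higher change in WT. In WT, no DMSO library reached the lowest FICZ library of any of the 3 genes. In AHR KO, both FICZ libraries lay above both DMSO libraries for Nqo1 and below them for Nfe2l2, and they overlapped for Osgin1. No group had enough libraries for a search for a single outlying library.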

How the results depend on the processing

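Of the members called in the main analysis, 7 of 14 for FICZ in WT, 1 of 8 for FICZ in AHR KO, 2 of 3 for the interaction, 3 of 5 for AHR KO against WT under DMSO and 9 of 17 under FICZ were called in the same direction under every alternative run. Leaving out 1 library in turn gave 8 to 17 members for FICZ in WT, 1 to 9 for FICZ in AHR KO, 2 to 3 for the interaction, 3 to 7 for AHR KO against WT under DMSO and 12 to 17 under FICZ. Over all genes the calls for FICZ ran from 1993 to 4135 in WT and from 419 to 2957 in AHR KO as libraries were left out, and the share called from 0.18% to 0.612% for the interaction, from 3.05% to 11.6% for AHR KO against WT under DMSO and from 10.4% to 24.3% under FICZ. For FICZ in AHR KO the 8 calls (19.7% of all genes called) became 5 without the filter (7.7%), 3 with the GC and length trend removed (5.23%) and 2 with the replicate block and that trend removed together (4.1%). For AHR KO against WT under DMSO the 5 calls (9.05% of all genes) became 9 in a fit of only the groups compared (12.7%). Over all genes, removing the trend moved the calls for FICZ from 3928 to 2335 in WT and from 2509 to 664 in AHR KO. Where that trend was removed, Keap1 changed sign (-0.017 in WT and -0.014 in AHR KO, and -0.014 in AHR KO with the replicate block), and Gpx4 was called lower at -0.24 in WT and -0.26 in AHR KO, and at -0.25 and -0.26 with the replicate block. The cause was not tested. No alternative moved the median of all genes by over 0.1.

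The replicate numbers are not shown to pair libraries: deviations of same-numbered libraries correlated at 0.051 in WT, 0.035 in AHR KO and -0.036 between WT FICZ and AHR KO FICZ. With the replicate block by number, 12 members were called for FICZ in WT (26.8% of all genes), 6 in AHR KO (17.6%), 3 for the interaction (0.306%), and 5 and 15 for AHR KO against WT under DMSO (8.26%) and FICZ (19.3%). With a replicate block by the genotype and number in the labels (WT2, KO1 and so on), which they do not state to be a shared culture, 11, 7 and 3 were called for the first 3 (24.6%, 19.0% and 0.408% of all genes), and the genotype comparisons could not be fitted. Under the block by number the calls of Prdx6 (adjusted p = 0.0635) and Taldo1 (0.0507) in WT, Gsr (0.0868) and Taldo1 (0.0691) in AHR KO, Nfe2l2 under DMSO (0.0598), and Txnrd1 (0.059) and Abcg2 (0.0779) under FICZ missed the threshold, and Gclm under DMSO passed it (0.0267). Under the block by genotype and number, Txnrd1 (0.0546), Prdx6 (0.0982) and Taldo1 (0.0736) in WT and Gsr (0.0879) and Taldo1 (0.0718) in AHR KO missed it, and Sesn2 in AHR KO passed it (0.0432). With the block by number and the trend removed together, the interaction of Osgin1 missed it (0.0612). A fit of only the groups compared equals the main one for the interaction. Groups of 2 or 3 libraries limit every value here, most of all for Abcg2, Cbr3 and Osgin1, whose standard errors were the largest of the list.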
